A study of Mus musculus with 6 samples.

Results

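Serpins are a family of protease inhibitors, and the genes described here were all those whose symbol on the array began with Serpin. That choice gave 80 of the 45281 probes, for 58 of the 28922 genes named on the array, spread over the clades A to I that the letter in each symbol marks. The study measured uterine RNA of pregnant mice at day 15.5 and at day 18.5 after mating, with 3 Illumina bead arrays for each day and no other treatment or genotype in the labels. The labels give uterus as the tissue, whereas the design text speaks of myometrium. The number of animals per array is not stated, so a p-value here speaks only of array-to-array spread, part of which may be technical. Arrays of each day lay side by side on a single chip, so day and chip position cannot be told apart. In such bulk tissue, fewer cells of a type and less RNA per cell cannot be told apart either.

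An inhibitory serpin offers an exposed reactive loop as bait. The protease cuts the loop, the serpin refolds, and the enzyme stays trapped in a covalent complex with it. Clade A members such as alpha-1-antitrypsin are mostly secreted, many of them by the liver, and clade B members lack a classical signal peptide and work mostly inside cells. Clades C to I hold regulators of coagulation, fibrinolysis, complement and neuronal proteases, and also members that inhibit nothing, such as the collagen chaperone Serpinh1. In rodents the clade A and clade B genes have multiplied into clusters of close copies. In the pregnant uterus and placenta, serpins meet proteases of invading trophoblast, of uterine natural killer cells and of matrix turnover.

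At the later day, transcripts of 2 groups of neighbouring serpin genes were higher, those of Serpinb9d to Serpinb9g and those of Serpina1b to Serpina1d. Serpinb6c fell the furthest, with a log2 difference of -2.87, and Serpina3n, Serpinh1, Serping1 and Serpine2 had differences of -0.96 to -0.41. A probe was tested when its signal stood above background (detection p under 0.05) on at least 3 of the 6 arrays, and each gene was read from its brightest tested probe. By limma with Benjamini-Hochberg adjustment over all tested probes, 11 of the 23 Serpin genes tested were higher at day 18.5, 5 were lower and 7 did not pass. Of the 14081 genes tested on the array, 12.3% were higher, 13.1% were lower and 25.4% were called either way. The median log2 difference, day 18.5 minus day 15.5, was 0.45 over the Serpin genes tested and 0.02 over all genes tested. The Serpin median depended on which genes and arrays entered: it was 0.03 over all 58 genes without a detection filter, 0.16 over the 15 genes detected on all 6 arrays at p under 0.01, and 0.28 without replicate 3 of day 15.5. By the fitted difference 8 of the rises were at least 2-fold, against 1 of the falls, while 3.95% and 3.81% of all genes tested rose and fell so far. Of these 8, Serpinb9e has a bound below 2-fold, given with its values. The values of the days did not overlap in any of the 16 called genes, which a call makes likely. They overlapped in the 7 Serpin genes that did not pass. Over all genes tested, called or not, 43.2% had days that did not overlap. Serpinb9d, Serpinb9e and Serpinb9g passed the filter only through day 18.5 and so had to be higher there if called, and Serpina1c and Serpina9 were detected on only 1 array of day 15.5. Rises came from clades A (6 of 9 genes tested) and B (5 of 10). The genes tested in clades E, G and H, 1 in each, were all lower, and the 1 tested in clade F did not pass.

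**Figure D1:**
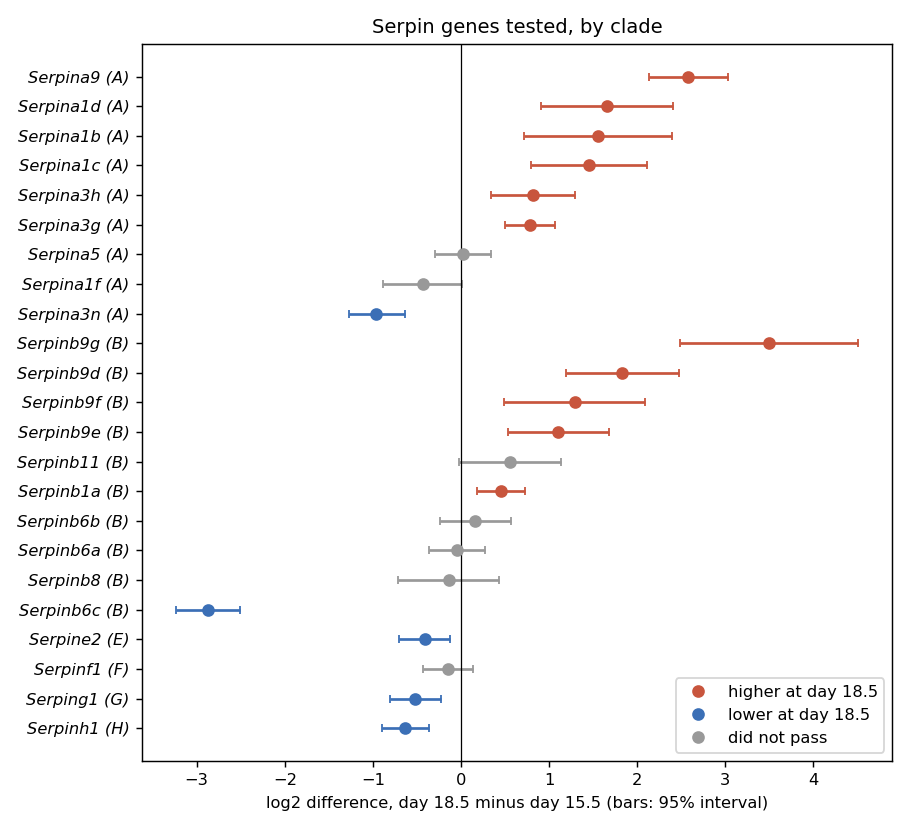
Log2 difference of each Serpin gene tested, day 18.5 minus day 15.5, with its 95% interval, ordered by clade (letter in brackets) and read from the brightest tested probe of 3 arrays per day. The 11 higher genes all belong to clades A and B, and Serpinb6c lies furthest to the left at -2.87. Serpinb9d, Serpinb9e and Serpinb9g were undetected at day 15.5, so their points and intervals rest on early values not above background.

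Serpinb9 is known as an inhibitor of granzyme B that guards cytotoxic and other cells against this killer protease, and the genes Serpinb9b to Serpinb9g are mouse copies that lie near it in the same cluster on chromosome 13, with Serpinb1b among them. The stretches just upstream of their annotated start sites, with Serpinb9 itself beside them, are shown because the copies that rose are much alike there. They are the 150 bases before the annotated start of transcription in RefSeq (GRCm38.p6), read on the plus strand, and capitals mark the letters TGACGT, the core of a cyclic AMP response element.
Serpinb9d, chr13:33192805-33192954: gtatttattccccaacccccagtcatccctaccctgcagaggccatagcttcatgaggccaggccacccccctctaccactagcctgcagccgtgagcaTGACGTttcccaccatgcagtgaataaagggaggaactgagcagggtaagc
Serpinb9e, chr13:33249458-33249607: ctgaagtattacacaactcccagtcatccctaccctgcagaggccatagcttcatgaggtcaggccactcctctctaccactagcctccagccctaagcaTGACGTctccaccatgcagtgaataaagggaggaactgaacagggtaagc
Serpinb9f, chr13:33323927-33324076: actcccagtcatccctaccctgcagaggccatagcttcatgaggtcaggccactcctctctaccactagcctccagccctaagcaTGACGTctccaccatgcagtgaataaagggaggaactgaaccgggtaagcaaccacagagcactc
Serpinb9g, chr13:33484640-33484789: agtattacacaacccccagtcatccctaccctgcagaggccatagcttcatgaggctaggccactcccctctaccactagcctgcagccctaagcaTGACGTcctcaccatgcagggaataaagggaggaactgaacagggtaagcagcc
Serpinb9, chr13:33004391-33004540: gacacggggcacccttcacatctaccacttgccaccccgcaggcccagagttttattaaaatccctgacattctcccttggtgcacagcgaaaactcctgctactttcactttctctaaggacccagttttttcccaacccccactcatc
Over windows of 250 bases before to 50 bases after the start, Serpinb9d to Serpinb9g shared 82.9% to 93.4% of their letters in the 6 pairs. Their identity to Serpinb9 and Serpinb9b was 41.3% to 44.6% in the 8 pairs. TGACGT was searched on both strands with its reverse complement ACGTCA. It lay 50 to 65 bases before the start in Serpinb9d to Serpinb9g and was not among these letters in Serpinb9 and Serpinb9b. Serpinb9c was not compared. Of the 32851 promoter windows in RefSeq 7.51% hold TGACGT, but the windows of Serpinb9d to Serpinb9g are near copies and not independent occurrences of it. The last letters printed for Serpinb9 resemble letters near the beginning of the other stretches, so the annotated starts may not correspond. The lower identity to Serpinb9 and the lack of TGACGT in its window may only reflect this.

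Serpinb9g rose the furthest of all the Serpin genes tested. Its log2 signal was 4.68, 5.17 and 4.62 on the day 15.5 arrays 1 to 3 and 8.50, 9.34 and 7.14 on those of day 18.5. No early array detected it, so only a bound on the rise can be given: at least 7.33-fold (adjusted p = 0.0005). Here and below, such a bound compares the mean of the bright day with the dimmest detected probe of each array of the other day. Its later arrays lay far above background and also far apart from each other, with an SD of 1.11 on the log2 scale. Serpinb9d read 4.71, 4.69 and 4.87 early and 6.76, 7.18 and 5.83 late, at least 2.20-fold higher (adjusted p = 0.00153). Serpinb9e read 5.01, 5.10 and 5.13 early and 6.48, 6.58 and 5.48 late, at least 1.65-fold higher (adjusted p = 0.0121, and 0.0557 without a detection filter, where it did not pass). Both were undetected at day 15.5, and the lowest late value of Serpinb9e, on replicate 3, lay close to its early ones. A further probe of each gene was detected on 2 of the later arrays only and was not tested.

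Serpinb9f was the copy with a signal at both days, at 7.09, 7.67 and 7.24 early and 8.64, 9.46 and 7.77 late. It rose 2.45-fold, a log2 difference of 1.29 ± 0.36 (SE) with an adjusted p of 0.0264. That rise did not pass without replicate 1 or replicate 3 of day 15.5 (adjusted p of 0.0802 and 0.0759) or without replicate 1 of day 18.5 (0.0538), nor with a trended and robust variance (0.0718) or without a detection filter (0.107). Serpinb9 and Serpinb9b were detected on no array and Serpinb9c on 1 array of day 18.5. The copies are alike enough that a probe of one may also read the transcripts of another, and the probe sequences were not used here, so the 4 rises may not be independent.

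In all 4 genes, replicate 2 of day 18.5 was the highest array and replicate 3 the lowest of that day. The 5 markers of trophoblast, the fetal lineage of the placenta, that rose had this order too. Prl7b1, a placental relative of prolactin, read 12.17, 12.80 and 11.12 on the day 18.5 arrays 1 to 3, and Prl2c2, Prl2a1, the placental cathepsin gene Ctsj and Tpbpb ranked the arrays the same way. Prl3b1, the other marker tested, did not: it read 5.47, 5.82 and 7.29, highest on replicate 3, and did not pass (adjusted p = 0.74). Of the 12 trophoblast markers listed, 5 of the 6 tested were higher at day 18.5. Of these, Prl2a1, Prl7b1, Ctsj and Tpbpb were undetected at day 15.5. They passed the filter only through day 18.5 and so had to be higher there if called. The summed signal of the 6 was 175 to 315 at day 15.5, resting largely on values not above background. It was 10200, 15800 and 4660 on the later arrays 1 to 3. Prl3d1, Ctsq, Ctsr, Tpbpa, Gcm1 and Syna were undetected. The part of trophoblast RNA in the Serpinb9 rises was not tested.

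**Figure D2:**
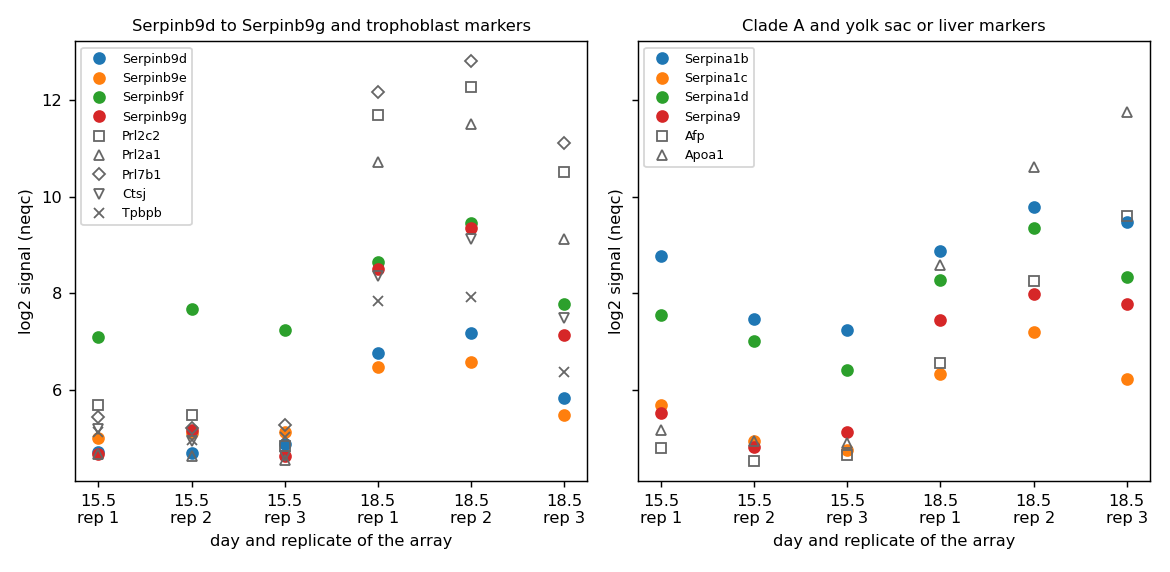
Log2 signal on each of the 6 arrays, with Serpinb9d to Serpinb9g (filled) beside the 5 trophoblast markers that rose (grey, left) and with clade A genes beside the yolk sac and liver markers Afp and Apoa1 (right). At day 18.5 replicate 2 is highest and replicate 3 lowest for every gene on the left, whereas Afp and Apoa1 are highest on replicate 3. The level of one probe cannot be set against that of another.

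The rest of clade B on chromosome 13 behaved differently from gene to gene. Serpinb6c, a mouse copy of the intracellular inhibitor Serpinb6a at the far end of the same cluster, read 8.83, 8.87 and 9.32 at day 15.5 and 6.30, 6.02 and 6.10 at day 18.5. The gap between the days was many times the spread within either. It fell 7.31-fold, a log2 difference of -2.87 ± 0.16 (SE) with an adjusted p of 5.19e-06, and stayed between -3.20 and -2.16 over the alternatives. Its direct neighbour Serpinb6a, which inhibits trypsin-like proteases and cathepsin G, read 12.86, 12.68 and 13.01 early and 12.75, 12.69 and 12.98 late. Those values overlapped, and the 95% interval of the log2 difference ran from -0.36 to 0.27 (adjusted p = 0.849). For Serpinb6b the log2 difference was 0.16 (95% interval -0.24 to 0.57, adjusted p = 0.562).

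Serpinb1a, an inhibitor of neutrophil elastase and cathepsin G, lies at the other end of that cluster. It read 6.89, 6.92 and 7.02 early and 7.47, 7.46 and 7.25 late. This 1.37-fold rise (log2 difference 0.45 ± 0.12 SE, adjusted p = 0.0237) was the smallest of the 11. Leaving out replicate 1 or 2 of day 15.5 gave adjusted p-values of 0.0601 and 0.0586, and leaving out replicate 1 or 2 of day 18.5 gave 0.0838 and 0.0946, so it did not pass in these cases. It did not pass under median scaling either (log2 difference 0.29, adjusted p = 0.135). Neutrophil markers, the source of its best known targets, were summed at 420 to 546 early and 476 to 544 late, with 1 of 3 tested genes higher and Ngp undetected.

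Outside chromosome 13, Serpinb11 and Serpinb8 were the clade B genes with a tested probe. Serpinb11 on chromosome 1 read 8.20, 7.84 and 7.02 early and 8.31, 8.28 and 8.13 late, and it did not pass (log2 difference 0.56, adjusted p = 0.151). Without replicate 1 of day 15.5 it did, at 0.81 (adjusted p = 0.036), and without replicate 3 of that day the difference was 0.22. For Serpinb8 the log2 difference was -0.14 (95% interval -0.71 to 0.43, adjusted p = 0.731).

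The Serpina1 genes are the mouse copies of the gene for alpha-1-antitrypsin, the plasma inhibitor of neutrophil elastase made chiefly by hepatocytes. They lie next to each other on chromosome 12, and their upstream stretches are shown because copies that rose and a copy too dim to test share almost the same letters. These are again the 150 bases before the RefSeq start (GRCm38.p6), read on the minus strand, with capitals on GTTAAT, a half-site of the hepatocyte factor HNF1.
Serpina1b, chr12:103738190-103738339: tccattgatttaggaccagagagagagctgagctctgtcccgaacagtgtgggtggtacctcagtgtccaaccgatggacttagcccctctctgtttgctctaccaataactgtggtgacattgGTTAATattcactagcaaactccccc
Serpina1c, chr12:103904951-103905100: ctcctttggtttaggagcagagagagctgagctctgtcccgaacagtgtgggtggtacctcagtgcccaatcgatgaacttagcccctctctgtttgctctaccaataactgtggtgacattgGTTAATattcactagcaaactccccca
Serpina1d, chr12:103773634-103773783: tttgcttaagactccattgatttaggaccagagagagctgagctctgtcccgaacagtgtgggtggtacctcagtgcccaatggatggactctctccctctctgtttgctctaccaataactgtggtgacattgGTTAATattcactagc
Serpina1a, chr12:103863620-103863769: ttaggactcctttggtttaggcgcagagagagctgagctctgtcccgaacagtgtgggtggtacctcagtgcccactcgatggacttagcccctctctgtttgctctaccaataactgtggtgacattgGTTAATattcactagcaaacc
The windows of Serpina1a to Serpina1d shared 85.2% to 91.4% of their letters in the 6 pairs, and that of Serpina1e shared 63.3% to 69.3% with them. GTTAAT, searched on both strands with its reverse complement ATTAAC, was present in all of them and in Serpina1e, and in 7.1% of the 32851 RefSeq windows. It was thus found in Serpina1a and Serpina1e, which had no tested probe, as well as in the genes that rose. It began at -27 to -16 from the annotated start in Serpina1a to Serpina1d, but at -78 in Serpina1e. The annotated starts may therefore not correspond, and the lower identity of Serpina1e may only reflect this.

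Serpina1d read 7.54, 7.01 and 6.41 at day 15.5 and 8.27, 9.35 and 8.33 at day 18.5. It rose 3.17-fold, a log2 difference of 1.66 ± 0.33 (SE) with an adjusted p of 0.00581. Every late array lay above every early one. Serpina1b read 8.77, 7.47 and 7.23 early and 8.88, 9.79 and 9.48 late, a 2.94-fold rise (adjusted p = 0.0142). Here replicate 1 of day 15.5 lay just under the lowest late array. Without replicate 2 of day 15.5 the log2 difference of 1.56 became 1.38 (adjusted p = 0.0654), without replicate 3 it became 1.26 (0.0514), and the adjusted p was 0.0692 with a trended and robust variance and 0.0719 without a detection filter. The other probes of Serpina1b rose by log2 differences of 1.53 (adjusted p = 0.00257) and 0.79 (adjusted p = 0.0471). In the latter probe the days overlapped, with 7.30 on replicate 1 of day 15.5 against 7.13 on replicate 1 of day 18.5. Serpina1c read 5.68, 4.95 and 4.75 early and 6.32, 7.19 and 6.23 late, a 2.73-fold rise (adjusted p = 0.00621) from a day at which only 1 array detected it. All tested Serpina1b, Serpina1c and Serpina1d probes may read each other's transcripts, as may Serpina1a, which was detected on 2 arrays of day 18.5 at log2 signals up to 5.55. Serpina1f, a neighbour expressed mostly in the mouse epididymis, was detected on 3 early arrays and 1 late array and did not pass (log2 difference -0.43, adjusted p = 0.145).

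Serpina9, also called centerin and known in human from germinal centre B cells, lies further along the same cluster. It read 5.52, 4.82 and 5.12 early and 7.44, 7.98 and 7.78 late. The late arrays were close together, with an SD of 0.27, but only 1 early array detected the gene, so the fold rests in part on early values not above background. The rise was 5.98-fold, a log2 difference of 2.58 ± 0.20 (SE) with an adjusted p of 2.8e-05, and it ranged from 1.61 to 3.24 over the alternatives.

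Alpha-1-antitrypsin is a product of yolk sac and liver, whose markers were read beside these genes. Afp, the fetal serum protein alpha-fetoprotein, read 6.56, 8.26 and 9.60 on the day 18.5 arrays 1 to 3, and the apolipoprotein gene Apoa1 read 8.58, 10.62 and 11.76. Both were undetected at day 15.5, and at day 18.5 both were highest on replicate 3 and lowest on replicate 1. By their brightest probes, Serpina1b, Serpina1c, Serpina1d and Serpina9 were highest on replicate 2. Of these, Serpina1b, Serpina1d and Serpina9 were also lowest on replicate 1, and Serpina1c was lowest on replicate 3. The Serpina1b probe with a log2 difference of 0.79 had the order of Afp and Apoa1. That with a difference of 1.53 was highest on replicate 2 and lowest on replicate 3. Of the 5 listed markers tested, 2 rose, Afp (at least 6.43-fold) and Apoa1 (at least 29.3-fold), Rbp4 and Amn fell and Trf did not pass. Afp and Apoa1 passed the filter only through day 18.5 and so had to be higher there if called. The summed signal of the 5 was 2320 to 2940 early against 2200, 4220 and 7460 late. Alb, Fgb, Ahsg and Cubn, 3 of them abundant in liver, were undetected. Serpina10, the liver-made inhibitor that acts with protein Z on factor Xa, was detected only on replicates 2 and 3 of day 18.5, at 5.70 and 6.52 against 4.72 on replicate 1. It was not tested here. The part of yolk sac or liver RNA in these rises was not tested.

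**Figure D3:**
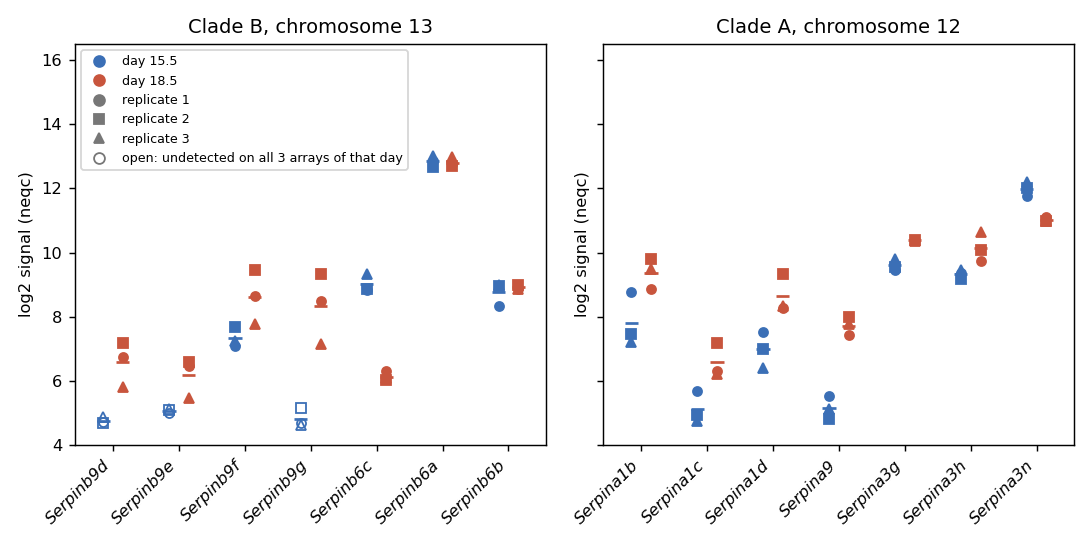
Log2 signal of clade B genes on chromosome 13 (left) and clade A genes on chromosome 12 (right), 1 point per array, with day 15.5 in blue, day 18.5 in red and a bar at each mean. Open points mark days on which all 3 arrays were undetected, as for Serpinb9d, Serpinb9e and Serpinb9g at day 15.5. Serpinb6c and Serpina3n fell, and the days overlap in Serpinb6a and Serpinb6b.

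The Serpina3 genes, the many mouse counterparts of the single human gene for alpha-1-antichymotrypsin, moved in opposite directions within a cluster. Serpina3g, which in mouse acts inside cells against cysteine cathepsins and is induced by interferon, read 9.46, 9.56 and 9.79 early and 10.39, 10.40 and 10.37 late. It rose 1.72-fold (log2 difference 0.78 ± 0.13 SE, adjusted p = 0.00191), with late arrays almost equal. Serpina3h, which RefSeq lists as a transcribed pseudogene, read 9.37, 9.19 and 9.47 early and 9.74, 10.09 and 10.64 late. Its rise was 1.76-fold (adjusted p = 0.0192) and did not pass without replicate 2 of day 15.5 (log2 difference 0.74, adjusted p = 0.0735) or without a detection filter (0.0673). Serpina3n, a secreted acute-phase inhibitor of cathepsin G and, in mouse, of granzyme B, fell 1.94-fold, from 11.76, 12.01 and 12.19 to 11.10, 10.99 and 10.99 (log2 difference -0.96 ± 0.14 SE, adjusted p = 0.00104). It stayed past the threshold under all 16 alternatives, between -1.08 and -0.85. Serpina3a, Serpina3b, Serpina3c, Serpina3f, Serpina3k and Serpina3m were detected on no array. Close copies make the probes of this group uncertain in the same way. Serpina5, the protein C inhibitor, stood near background at both days (log2 difference 0.02, adjusted p = 0.925).

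The single-copy serpins of clades E to H were read by bright probes and moved little. Serpinh1, also called Hsp47, the endoplasmic reticulum chaperone that holds procollagen in its triple helix, read 13.92, 13.86 and 14.05 early and 13.34, 13.40 and 13.21 late. It fell 1.54-fold (log2 difference -0.63 ± 0.12 SE, adjusted p = 0.00474), and its other probe had a log2 difference of -0.79 (adjusted p = 0.0076). Both probes thus gave the same direction with no overlap of the days. Serping1, the C1 inhibitor of complement and of the kallikrein system, read 13.70, 13.82 and 13.98 early and 13.31, 13.19 and 13.43 late, a 1.44-fold fall (adjusted p = 0.0161). Its other probe fell by 0.63 (adjusted p = 0.00506). The brightest probe did not pass without replicate 3 of day 15.5 (adjusted p = 0.0624) or replicate 2 of day 18.5 (0.0722).

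Serpine2, the protease nexin that blocks thrombin and plasminogen activators at the cell surface, read 12.31, 12.20 and 12.54 early and 11.95, 11.87 and 11.98 late. The days were separate but close, and the 1.33-fold fall (log2 difference -0.41 ± 0.13 SE) had an adjusted p of 0.0431. It was the least stable of the called genes. Without replicate 1 or 3 of day 15.5 the adjusted p was 0.071 and 0.144, and without replicates 1, 2 or 3 of day 18.5 it was 0.0961, 0.139 and 0.0738. The authors' deposited intensities gave 0.0589, while its other probe fell by 0.55 (adjusted p = 0.0227). Serpinf1, or pigment epithelium-derived factor, a secreted serpin that inhibits no protease and restrains vessel growth, read 13.51, 13.69 and 13.83 early and 13.46, 13.55 and 13.59 late. It did not pass (log2 difference -0.15, 95% interval -0.43 to 0.14, adjusted p = 0.454), and neither did its other probe. Fibroblast markers, from cells that make these proteins, were summed at 69700 to 72800 early and 61000 to 65000 late, with 2 of 6 lower, and the part of this shift in the falls was not tested.

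**Figure D4:**
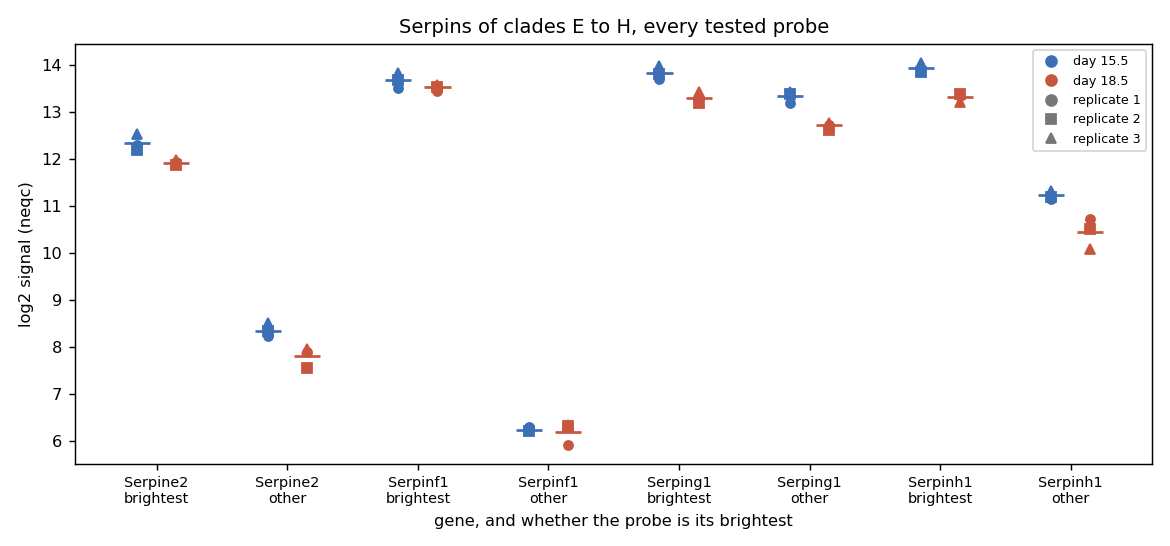
Log2 signal of every tested probe of Serpine2, Serpinf1, Serping1 and Serpinh1, 1 point per array with a bar at the mean of each day. Both probes of Serpine2, Serping1 and Serpinh1 are lower on all arrays of day 18.5, and those of Serpinf1 overlap.

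The other 35 genes had no tested probe. Of these, 29 were detected on no array, among them Serpinf2 (the plasmin inhibitor), Serpind1 (heparin cofactor), Serpinb2, Serpinb5 (maspin) and Serpina6 (corticosteroid-binding globulin). Undetected means only that a probe did not rise above background on these arrays. The remaining 6, Serpina10, Serpina1a, Serpinb12, Serpinb9c, Serpini1 (neuroserpin) and Serpinc1 (antithrombin), were detected on 1 or 2 arrays. Chromosome 12 held 22 member genes, and of the 9 tested 6 were higher and 1 was lower. Chromosome 13 held 13, and of the 8 tested 5 were higher and 1 was lower. Chromosome 1 held 14, but only 3 were tested, of which 1 was lower and 2 did not pass. The shares over all genes tested were 12.3% higher and 13.1% lower. Of the 6 genes with several tested probes, none had probes called in opposite directions.

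Genes that work with serpins were read from lists. Over all genes tested 12.3% were higher and 13.1% were lower, and the counts below are to be read beside these shares. Among target proteases in granules and lysosomes or of inflammation, 6 of the 18 tested were higher and 7 were lower, with a median log2 difference of 0.15. The 3 genes with the smallest adjusted p all fell, namely the protease gene Mcpt8 (at least 5.17-fold lower, adjusted p = 4.07e-06, undetected at day 18.5), cathepsin G (Ctsg, log2 difference -3.62, adjusted p = 3.07e-05) and granzyme E (Gzme, -4.55, adjusted p = 5.48e-05). Granzyme B (Gzmb), the known target of Serpinb9, was undetected, as was the elastase gene Elane, the target of alpha-1-antitrypsin. Markers of NK and T cells moved with these falls, 5 of 7 being lower, with a summed signal of 5530 to 6970 early and 740 to 962 late and with Ncr1 and Cd8a undetected, and their part in these falls was not tested.

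In the plasminogen system, which Serpine2 restrains, 1 of 8 tested genes was lower, the scavenger receptor Lrp1 that clears serpin complexes (-0.94, adjusted p = 0.00769). None was higher and the median was -0.19. Plau and Plat, the plasminogen activators, did not pass (adjusted p of 0.672 and 0.85). Among coagulation and complement proteases and receptors, 3 of 9 were lower and none was higher (median -0.22). These were coagulation factor VII (F7, -2.11, adjusted p = 0.000157), Masp1 (at least 1.75-fold lower, adjusted p = 0.0014, undetected at day 18.5) and C1s1 (-0.72, adjusted p = 0.00552), the latter a protease that Serping1 inhibits.

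Among epithelial and kallikrein-type proteases 1 of 10 was higher, matriptase (St14, 0.66, adjusted p = 0.0106), and 2 were lower, Tmprss4 (-0.96, adjusted p = 0.00738) and Klk1 (-0.63, adjusted p = 0.0137), around a median of -0.10. Of the protease inhibitors outside the family, 2 of 14 were higher and 4 were lower, with a median of -0.01. The inter-alpha-trypsin inhibitor heavy chains went apart, as Itih3 rose (1.45, adjusted p = 0.000251) while Itih1 (-1.52, adjusted p = 0.000344) and Itih5 (-1.24, adjusted p = 0.0009) fell. Collagen folding partners and clients of Serpinh1 had 12 of 19 lower and none higher, with a median of -0.65. Col1a1 fell by 1.86 (adjusted p = 4.14e-05), the prolyl hydroxylase subunit P4ha2 by 1.11 (adjusted p = 0.000211) and Pcolce, which speeds procollagen cleavage, by 1.32 (adjusted p = 0.000337).

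**Figure D5:**
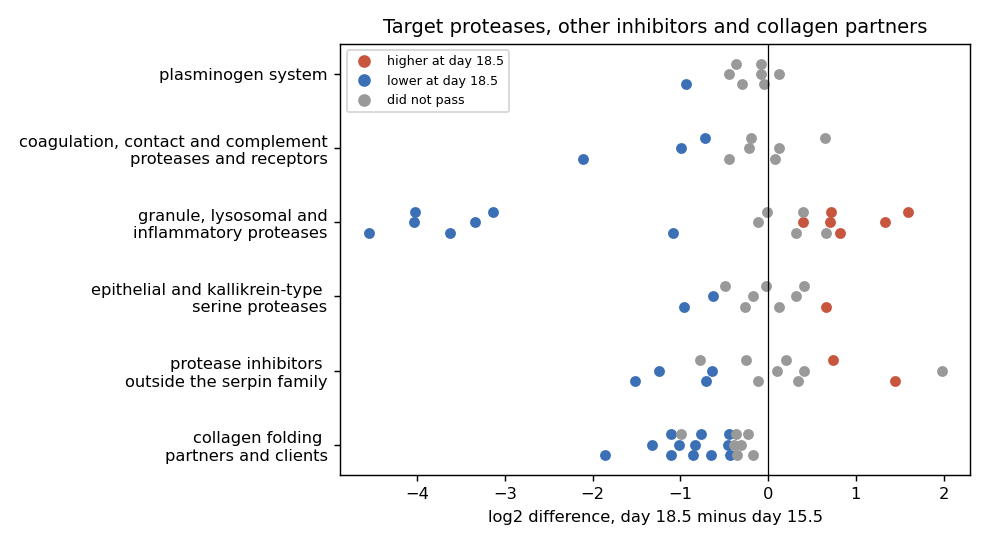
Log2 difference, day 18.5 minus day 15.5, of each tested gene in 6 lists of target proteases, other inhibitors and collagen partners, 1 point per gene, spread vertically within a list for legibility. The falls past -3 all lie in the granule list, and all 19 genes of the collagen list lie left of 0, 12 of them lower. Mcpt8 and Masp1 were undetected at day 18.5, so their points rest on late values not above background.

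The arrays had median signals of 75.8 to 105 and 43.6% to 46.5% of probes detected, and log2 signals correlated at 0.987 to 0.992 within a day and 0.945 to 0.96 between days. All 8 smooth muscle markers were detected, with 2 lower and sums of 107000 to 120000 early and 110000 to 119000 late. Epithelial markers were higher in 8 of 8 genes (13500 to 20900 early, 38300 to 44700 late, Epcam undetected) and those of stratified epithelium in 3 of 4 (565 to 1690 early, 7410 to 10500 late, Dsg3 and Ivl undetected). Decidual markers split, with 2 higher and 2 lower (3020 to 5150 early, 1310 to 2000 late), and Hand2, which rose, was undetected at day 15.5. Of 7 endothelial markers 3 were lower, of 8 macrophage markers none passed, of 4 mast cell markers 1 was higher and 1 lower, and of 5 platelet markers 2 were higher. The part of these shifts in the Serpin differences was not tested. In the authors' deposited table, 78 Serpin probes had a ratio. Of these, 14 had a false discovery rate under 0.05 with a ratio over 1 and 5 with a ratio under 1. The shares over all 43887 probes with a ratio were 4.66% and 5.69%. Of the 19 Serpin probes under that rate, 16 were called here in the same direction and 3 were not tested. A further 5 Serpin probes called here were not under that rate in the authors' deposited table. The authors' deposited table gave a ratio of day 18.5 over day 15.5 of 0.109 for Serpinb6c.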

How the data were processed

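RNA of mouse uterus was hybridised to 6 Illumina bead arrays, 3 per day, on 1 chip. Per the file headers, the deposited unnormalized table gives each probe's mean intensity over its beads on each array, with a detection p-value, and its medians show no normalization. The authors' intensity values in their comparison table are linear, background-corrected and quantile-normalized as far as the values show, and no source used here gives the method. That table adds, per the file headers, a ratio, a false discovery rate (q-value) and the number of beads behind each probe (23 to 76 for the Serpin probes). Its ratios and gene names stand 1394 lines above their probes. At that offset all 43887 ratios equal the ratio of geometric means of the deposited intensities (relative tolerance 1e-06), and they were read there.

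The unnormalized intensities were processed with neqc, which corrects background, applies quantile normalization and takes log2 (limma 3.58.1 in R 4.3.3, offset 16, background inferred from the detection p-values). The 20701 probes with detection p under 0.05 on at least 3 arrays were fitted with lmFit and eBayes without a block. Two-sided p-values were adjusted over all of them by Benjamini-Hochberg, with a threshold of 0.05. The fit was tested on simulated data. A gene was read from its brightest tested probe. Probes were named through RefSeq (GRCm38.p6): of the 80 Serpin probes 67 matched by accession, 12 by symbol and 1 by synonym. A further 9 probes of 8 genes, which carry another symbol in the file and a Serpin name in RefSeq, were not members. The number of arrays limits the precision. Promoter windows were found for 47 of the 58 genes. Values of 1 member gene are not reported here.

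The members and lists were chosen with earlier results of these data known. Called genes with the largest changes and the brightest genes were named with every array. In the other lists up to 3 genes of smallest adjusted p were named, and target genes mentioned without passing were chosen after their values were seen. Other backgrounds, scalings, filters, probe summaries, a variance trend, a replicate block and the omission of each array were tried.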

Additional observations from a re-analysis of the deposited data

How the results depend on the processing

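No called gene changed direction under any of the 16 alternatives that tested it. Of the 16 called genes, Serpina1d, Serpina3g, Serpina3n, Serpinb6c and Serpinh1 passed in all 16 alternatives, and Serpina1c, Serpina9, Serpinb9d and Serpinb9g passed in the 15 that tested them. Without a detection filter all 58 genes and 45281 probes entered both the fit and the adjustment. There 7 genes were higher and 5 lower, and Serpina1b, Serpina3h, Serpinb9e and Serpinb9f no longer passed. With detection p under 0.01 required on all 6 arrays 6 were higher and 5 lower, since Serpina1c, Serpina9, Serpinb9d, Serpinb9e and Serpinb9g were no longer tested. Leaving out 1 array at a time gave 8 to 11 higher and 3 to 5 lower. The 3 came without replicate 3 of day 15.5 and without replicate 2 of day 18.5, where Serpine2 and Serping1 were lost. Median scaling moved the median of all probes to -0.11 from 0.01 and the share of calls that were higher from 46.8% to 29.4%. Relative to that median, the Serpin median was 0.40 against 0.44. A replicate block gave 10 higher and 4 lower, losing Serpinb1a (adjusted p = 0.057) and Serpine2 (0.0659). The labels do not say whether replicate numbers pair arrays across the days. Correlations of same-numbered deviations were -0.165, 0.138 and -0.0708. With 3 arrays per day such correlations cannot show whether the arrays were paired, so it is not known whether this block applies. Arrays of 3 per day, dim probes and close gene copies limit the clade A and B values.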
